A study of Homo sapiens with 6 samples.

Results

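The genes described here are 10 inflammatory cytokine and cytokine receptor genes, picked by symbol from the 62754 genes of the deposited count table. The cytokines are CXCL8, CSF2, CSF1, IL23A, IL1A, IL18 and IL15, and the receptors are IL7R, IL1R1 and IL1RAP. All 10 were found, and 9 of them were among the 19874 genes with enough counts to be tested. IL1A had fewer than 10 counts in every library and is reported as low.

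RNA was sequenced from HK-2, an immortalized human proximal tubule epithelial line, after exposure to Cisplatin, a platinum drug that crosslinks DNA and injures tubule cells. The cells carried either negative control siRNA (CP+siNC, n = 3) or siRNA against the acetyltransferase gene NAT10 (CP+siNAT10, n = 3). Cisplatin was given to both groups, so the comparison addresses what silencing NAT10 changes in drug-treated cells, and levels without the drug were not measured. The labels state neither dose nor duration, neither the number nor the sequence of the siRNAs, and nothing on whether replicates came from separate cultures. The p-values therefore measure only the spread between these samples, which may be technical. Lower NAT10 and any other effect of its siRNA cannot be told apart in this design.

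Library totals were 19321665, 21602988 and 19464027 counts in CP+siNC and 20793709, 21531774 and 25192736 counts in CP+siNAT10. Levels are given in CPM, counts relative to the TMM-scaled library total, and only RPKM, which divides CPM by gene length in kilobases, is used to compare one gene with another. Log2 fold changes are CP+siNAT10 against CP+siNC. Replicates within a group differed by a chi-square per gene of 1.74 to 2.55, against 18.6 to 23.0 across groups.

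The cell line label was checked against 18 renal epithelial markers. Their summed level was 2631, 2665 and 2596 CPM in CP+siNC and 2528, 2530 and 2563 CPM in CP+siNAT10, and the most abundant per length was the keratin gene KRT8 at a mean of 211 RPKM. Most of the sum came from KRT8, KRT18, KRT19 and VIM, which are not particular to the kidney. The nephron transcription factor gene PAX8 was present, at 30.1 to 32.8 CPM in CP+siNC and 42.4 to 51.2 CPM in CP+siNAT10. The proximal tubule markers were not uniform. LRP2, CUBN, SLC34A1, ANPEP and MME each had a mean under 1 CPM over all libraries, and the water channel gene AQP1 was at 0.549 to 1.26 CPM. GGT1, a brush border enzyme gene with near-identical copies that could share its reads, was at 33.0 to 33.4 CPM in CP+siNC and 25.3 to 29.1 CPM in CP+siNAT10. The E-cadherin gene CDH1 had 0 to 2 counts per library, while VIM, the intermediate filament gene of mesenchymal and cultured cells, was at 446 to 454 CPM in CP+siNC and 391 to 406 CPM in CP+siNAT10.

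NAT10 (ENSG00000135372, chromosome 11 from 34105617 to 34147670, GRCh38) was measured at 75.8, 71.4 and 73.2 CPM in CP+siNC and at 41.3, 40.5 and 42.4 CPM in CP+siNAT10. The groups were well apart, with the lower values under NAT10 siRNA as the labels state. The level was 56.5% of the control, or -0.82 ± 0.0426 (standard error) as a log2 fold change (edgeR quasi-likelihood test, Benjamini-Hochberg adjusted p = 2.79e-15).

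Cytokines are small secreted proteins that carry signals between cells by binding receptors on the surface. Injured tubule epithelium is known to secrete chemokines and colony-stimulating factors that draw in and sustain neutrophils and macrophages, and cells that have stopped dividing after DNA damage release a similar mixture. Interleukin 1 acts through a receptor pair, IL1R1 and its accessory chain IL1RAP, while interleukin 7, 15 and 23 act through receptors coupled to JAK kinases and STAT factors.

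With NAT10 siRNA, CXCL8, CSF2, IL23A and IL7R fell and IL1R1 rose. CSF1, IL18, IL15 and IL1RAP did not pass the test. Among the 9 tested genes, 4 were lower and 1 was higher at an adjusted p under 0.05 (edgeR quasi-likelihood test with Benjamini-Hochberg adjustment over all tested genes). Over all tested genes 22.3% were lower and 21.8% higher by this rule, so changes of this kind were common. With a log2 fold change over 1 in size as a second limit, 3 of the 9 were lower, IL23A, CSF2 and IL7R, and 1 was higher, IL1R1, where 1.38% of all tested genes were lower and 0.951% higher. When the 2-fold limit was itself tested, with edgeR's glmTreat, IL23A and IL7R passed, and CSF2 (adjusted p = 0.449) and IL1R1 (adjusted p = 1) did not. The groups did not overlap, with CP+siNAT10 lower, for 4 of the 9, and with CP+siNAT10 higher for 2, IL1R1 and IL1RAP, against 25.7% lower and 25.7% higher of all tested genes. The median log2 fold change of the 9 was -0.12, beside 0.0070 over all tested genes. The genes described here were chosen with earlier results of these data known. The numbers of them called, and their median, set beside all tested genes, are therefore not independent evidence. IL23A and IL7R had also been picked out by the study from these same libraries, so their fall is not independent evidence either. In bulk RNA, fewer cells of a kind and less RNA per cell cannot be told apart.

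**Figure D1:**
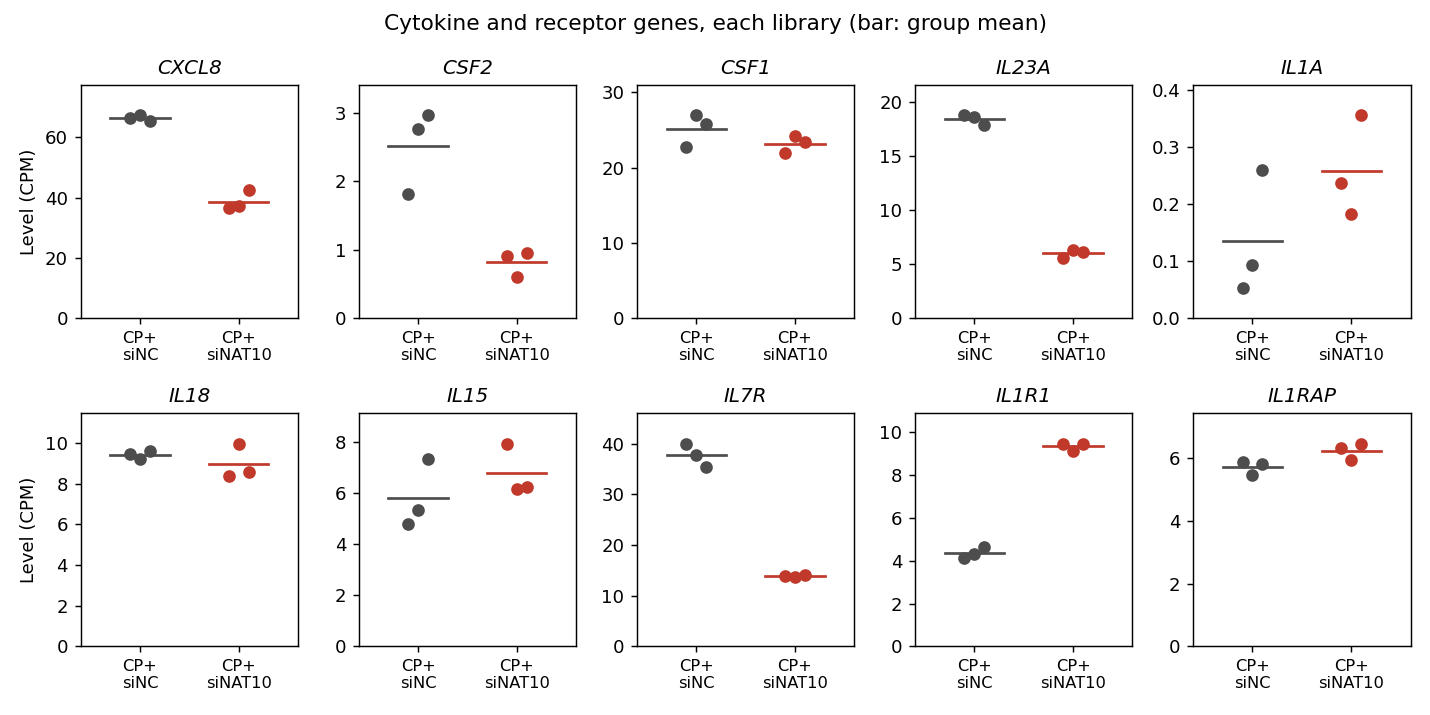
Level of each of the 10 cytokine and receptor genes in CPM (vertical axis, from 0, its own scale per gene) in every library of CP+siNC (grey) and CP+siNAT10 (red), with a bar at the group mean of 3 libraries. The groups are apart for CXCL8, CSF2, IL23A, IL7R and IL1R1, narrowly apart for IL1RAP, and overlap for CSF1, IL18, IL15 and IL1A.

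**Figure D2:**
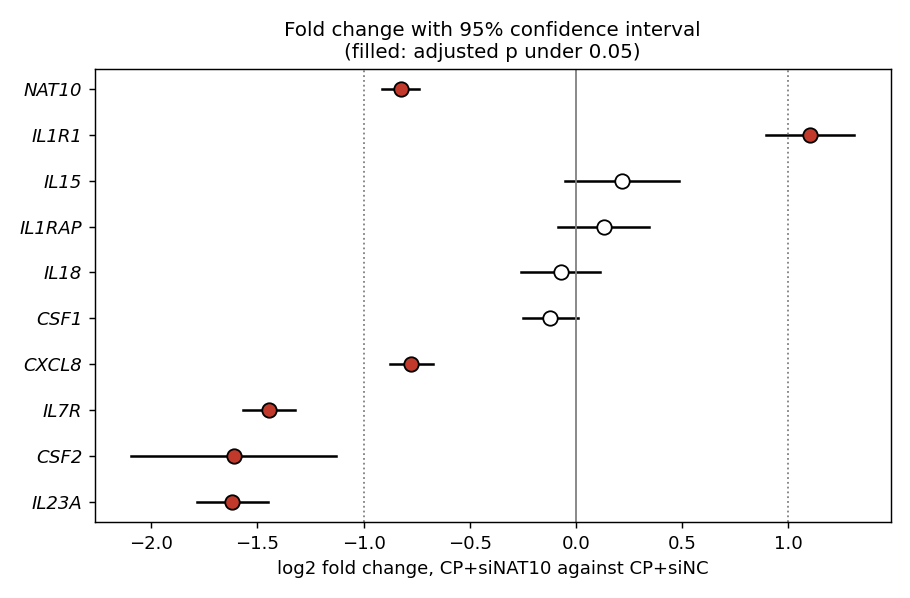
Log2 fold change of CP+siNAT10 against CP+siNC (horizontal axis) with its 95% confidence interval for NAT10 and the 9 tested cytokine and receptor genes, filled where the adjusted p was under 0.05. IL23A, CSF2 and IL7R lie beyond -1, CXCL8 at -0.77 and IL1R1 at 1.10, and dotted lines mark a 2-fold difference.

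The promoters of the 4 genes that fell are shown because these genes moved in one direction. RefSeq windows (GRCh38.p14), from 250 bases before to 50 bases after a transcription start, were matched by symbol for 7 of the 10 genes, with 11 windows in all. Both strands were searched for the AP-1 motif TGANTCA, the NF-kappaB motif as its general decamer and as the 9-mer GGAATTTCC, the C/EBP motif TTGCNNAA and the TATA box TATAAA. Capitals mark matches, all windows below are on the plus strand and run 5′ to 3′, and no marked matches overlap each other apart from the decamer read on both strands. The windows are chr4:73740319-73740618 for CXCL8, chr5:132073539-132073838 for CSF2, chr12:56338634-56338933 for IL23A and chr5:35856641-35856940 for IL7R.
CXCL8: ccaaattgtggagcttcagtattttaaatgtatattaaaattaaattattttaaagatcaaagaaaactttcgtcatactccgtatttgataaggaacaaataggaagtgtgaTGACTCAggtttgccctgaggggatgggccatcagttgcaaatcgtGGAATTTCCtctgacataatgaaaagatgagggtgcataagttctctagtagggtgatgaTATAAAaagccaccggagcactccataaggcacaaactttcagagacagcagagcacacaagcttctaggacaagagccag
CSF2: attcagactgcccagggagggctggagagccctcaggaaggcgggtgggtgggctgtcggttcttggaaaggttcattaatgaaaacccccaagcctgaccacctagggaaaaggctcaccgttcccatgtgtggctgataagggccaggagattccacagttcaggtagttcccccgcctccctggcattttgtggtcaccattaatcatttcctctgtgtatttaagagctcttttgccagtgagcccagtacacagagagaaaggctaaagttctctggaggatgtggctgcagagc
IL23A: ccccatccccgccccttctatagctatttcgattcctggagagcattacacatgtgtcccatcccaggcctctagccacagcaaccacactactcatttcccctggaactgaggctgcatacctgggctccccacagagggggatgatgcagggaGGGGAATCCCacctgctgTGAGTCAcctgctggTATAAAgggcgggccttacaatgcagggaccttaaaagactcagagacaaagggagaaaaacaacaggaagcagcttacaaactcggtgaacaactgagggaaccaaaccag
IL7R: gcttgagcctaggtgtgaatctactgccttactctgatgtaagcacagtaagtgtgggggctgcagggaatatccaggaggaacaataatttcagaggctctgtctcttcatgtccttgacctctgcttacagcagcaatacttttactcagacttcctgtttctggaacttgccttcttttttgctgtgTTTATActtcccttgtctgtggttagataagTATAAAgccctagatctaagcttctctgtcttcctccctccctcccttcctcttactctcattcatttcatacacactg

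The CXCL8 window held an AP-1 match beginning at -137 from the start site, the NF-kappaB 9-mer at -91 and a TATA box at -31. It did not hold the general NF-kappaB decamer. In the IL23A window an NF-kappaB decamer began at -95, an AP-1 match at -77 and a TATA box at -62. The IL7R window held TATA box letters on both strands, at -29 on its own strand and at -60 on the other. None of the searched letters were in the CSF2 window. Of the genes not printed, the higher IL1R1 had a C/EBP match in 1 of its 4 windows and TATA box letters in another, the low IL1A had AP-1 and TATA box matches, and the single IL1RAP window had none. Over all 35114 windows of this length, 7.71% held the AP-1 motif, 5.91% the decamer, 0.461% the 9-mer, 10.5% the C/EBP motif and 11.5% the TATA box. The 9-mer is a specific form chosen for the search, so its share does not tell how unusual the CXCL8 match is. These matches describe letters and were not tested as binding sites.

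Cytokine transcripts are also known for AU-rich elements, repeats of ATTTA in the 3′ UTR that shorten the life of the mRNA. The longest 3′ UTR of each gene in GENCODE 29 was searched for this pentamer and for the nonamer TTATTTATT, a search added with the expression values known. The pentamer was in 9 of the 10 genes, against 72% of 13077 tested genes with an annotated 3′ UTR, and the nonamer was in 3, CXCL8, CSF2 and IL23A, against 9.09%. These 3 were lower and IL7R was lower without it, and of the 1189 tested genes with the nonamer 31.1% were lower and 28.0% higher, beside 25.8% and 27.5% of those without it. Of the lower genes, CSF2 had 8 pentamers in a 3′ UTR of 318 bases, CXCL8 9 in 1252, IL23A 4 in 306 and IL7R 12 in 3117. The higher IL1R1 had 8 in 3115 bases. Among the genes not called, CSF1, IL15 and IL1RAP had 4 each and IL18 had 0 in 345 bases, and the low IL1A had 5. A link between pentamers and the changes was not tested. The densest stretch of 30 bases in the CSF2 3′ UTR, with pentamers in capitals, lies at chr5:132076076-132076105 (GRCh38, plus strand).
CSF2: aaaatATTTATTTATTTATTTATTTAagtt

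CXCL8 (ENSG00000169429, chromosome 4 from 73740519 to 73743715) encodes interleukin 8, a chemokine that attracts neutrophils. It was measured at 66.6, 67.3 and 65.3 CPM in CP+siNC and at 36.5, 37.2 and 42.4 CPM in CP+siNAT10. The CP+siNC libraries lay close together, CP+siNAT10 replicate 3 was the highest of its group, and the groups did not overlap. Each value rests on 769 to 1441 counts. The level in CP+siNAT10 was 58.4% of the control, or -0.77 ± 0.0490 (standard error) as a log2 fold change (edgeR quasi-likelihood test, Benjamini-Hochberg adjusted p = 2.22e-13), and its 95% interval of -0.88 to -0.67 stayed within a 2-fold difference.

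CSF2 (ENSG00000164400, chromosome 5 from 132073789 to 132076170) encodes GM-CSF, a growth and activation factor for granulocytes and macrophages. It was scarce, with 34, 59 and 57 counts in CP+siNC and 19, 13 and 24 counts in CP+siNAT10, or 1.81, 2.76 and 2.96 CPM against 0.902, 0.595 and 0.947 CPM. CP+siNC replicate 1 was the lowest of its group and still lay above every CP+siNAT10 library. The log2 fold change was -1.61 with a 95% interval of -2.09 to -1.13 (edgeR quasi-likelihood test, Benjamini-Hochberg adjusted p = 1.82e-06). The standard error of 0.235 was larger than that of every other called gene among the 10, and the coefficient of variation of the libraries was 24.6% in CP+siNC and 23.5% in CP+siNAT10, where counting error alone gives 14.1% and 23.1%.

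CSF1 (ENSG00000184371, chromosome 1 from 109910242 to 109929034) encodes M-CSF, which keeps macrophages alive. Levels of 22.7, 27.0 and 25.8 CPM in CP+siNC stood beside 21.9, 24.2 and 23.4 CPM in CP+siNAT10. The groups overlapped because CP+siNC replicate 1 lay within the range of CP+siNAT10. The log2 fold change of -0.12 had a 95% interval of -0.25 to 0.0073 and did not pass (edgeR quasi-likelihood test, Benjamini-Hochberg adjusted p = 0.121). That library decided the call: without CP+siNC replicate 1 the value was -0.19 and the adjusted p from the same edgeR test was 0.0226, within a range of 0.0226 to 0.447 over the alternatives that tested for any difference. Without CP+siNC replicate 2 the value was -0.070.

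IL23A (ENSG00000110944, chromosome 12 from 56334174 to 56340305) encodes the p19 subunit of interleukin 23, which pairs with the IL12B product and sustains Th17 lymphocytes. It was measured at 18.7, 18.6 and 17.9 CPM in CP+siNC and at 5.60, 6.27 and 6.08 CPM in CP+siNAT10. Both groups were tight and far apart. The level in CP+siNAT10 was 32.6% of the control, or -1.62 ± 0.0810 (standard error) as a log2 fold change (edgeR quasi-likelihood test, Benjamini-Hochberg adjusted p = 1.45e-15). Its partner gene IL12B was too low to be tested, with 5, 9 and 7 counts in CP+siNC and 19, 7 and 14 in CP+siNAT10.

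IL1A (ENSG00000115008, chromosome 2 from 112773925 to 112784493, minus strand) encodes interleukin 1 alpha, an alarm cytokine held inside cells and released on damage. It had 1, 2 and 5 counts in CP+siNC and 5, 4 and 9 in CP+siNAT10. The groups overlapped. The sums of 8 and 18 counts have exact Poisson 95% intervals of 3.45 to 15.8 and 10.7 to 28.4, which cover counting error only. Fitted without a filter on low counts, IL1A had a log2 fold change of 0.95 and did not pass (edgeR adjusted p = 0.382).

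IL18 (ENSG00000150782, chromosome 11 from 112143253 to 112164094, minus strand) encodes interleukin 18, an inflammasome-processed cytokine of the IL-1 family. Levels were 9.45, 9.20 and 9.61 CPM in CP+siNC and 8.36, 9.97 and 8.56 CPM in CP+siNAT10. CP+siNAT10 replicate 2 was the highest library of all and the others of its group the lowest, so the CP+siNC values lay inside the range of CP+siNAT10. The log2 fold change was -0.072, with a 95% interval of -0.26 to 0.11 (edgeR quasi-likelihood test, Benjamini-Hochberg adjusted p = 0.554). It was -0.15 without CP+siNAT10 replicate 2, -0.028 without CP+siNAT10 replicate 1 and -0.035 without CP+siNAT10 replicate 3, and passed in none of these. The value is also uncertain because the whole gene lies inside an antisense gene, ENSG00000255292, with a mean of 196 counts beside 195 for IL18 and a log2 fold change of -0.38. Whether strand was used in counting is not given in the sources used here, and without it reads of the pair cannot be told apart.

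IL15 (ENSG00000164136, chromosome 4 from 141636583 to 141733458) encodes a cytokine that sustains natural killer and memory T cells and is displayed to them on IL15RA. Levels were 4.78, 5.32 and 7.32 CPM in CP+siNC and 7.93, 6.18 and 6.23 CPM in CP+siNAT10. CP+siNC replicate 3 stood well above its group and overlapped CP+siNAT10. The log2 fold change of 0.22 had a 95% interval of -0.050 to 0.49 and did not pass (edgeR quasi-likelihood test, Benjamini-Hochberg adjusted p = 0.186). Without CP+siNC replicate 3 it was 0.41 with an adjusted p of 0.0115 from the same edgeR test, where the alternatives that tested for any difference ranged from 0.0115 to 0.613. Omitting any of 3 other libraries lowered the value, to 0.10 for CP+siNC replicate 1, to 0.15 for CP+siNC replicate 2 and to 0.099 for CP+siNAT10 replicate 1.

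IL7R (ENSG00000168685, chromosome 5 from 35852695 to 35876434) encodes the interleukin 7 receptor alpha chain, best known for the survival of lymphocytes and shared with the TSLP receptor. It was measured at 40.0, 37.8 and 35.4 CPM in CP+siNC and at 13.8, 13.7 and 14.0 CPM in CP+siNAT10. The CP+siNAT10 libraries were nearly identical, and all lay far below the lowest CP+siNC library. The level was 36.7% of the control, or -1.45 ± 0.0592 (standard error) as a log2 fold change (edgeR quasi-likelihood test, Benjamini-Hochberg adjusted p = 1.78e-17). This was the smallest p among the 9 tested genes.

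IL1R1 (ENSG00000115594, chromosome 2 from 102064544 to 102179866) encodes the signalling receptor of interleukin 1. It had 78, 92 and 89 counts in CP+siNC and 199, 199 and 240 in CP+siNAT10, or 4.14, 4.30 and 4.62 CPM against 9.45, 9.10 and 9.47 CPM. Every CP+siNAT10 library lay above every CP+siNC library, with little spread in either group. The level was 2.15-fold higher, a log2 fold change of 1.10 with a 95% interval of 0.89 to 1.31 (edgeR quasi-likelihood test, Benjamini-Hochberg adjusted p = 5.53e-10). An antisense gene, IL1R1-AS1, overlaps it in part but had a mean of 4.50 counts, against 149.5 for IL1R1.

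IL1RAP (ENSG00000196083, chromosome 3 from 190514051 to 190659750) encodes the accessory chain that IL1R1 needs to signal and that the receptor of interleukin 33 also uses. Levels of 5.89, 5.47 and 5.82 CPM in CP+siNC stood beside 6.32, 5.95 and 6.47 CPM in CP+siNAT10. The groups did not overlap, but the gap between them was narrow. The log2 fold change of 0.13 had a 95% interval of -0.086 to 0.34 and did not pass (edgeR quasi-likelihood test, Benjamini-Hochberg adjusted p = 0.342). With the pseudogenes GCNT1P3 and RN7SKP296, which lie within it, it could share reads, but these had means of 1.00 and 1.83 counts.

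Per length, CXCL8 had the highest level of the 10 genes in CP+siNC, at 25.7 ± 0.390 RPKM (SD, n = 3), followed by IL23A at 15.6 ± 0.401 and IL7R at 6.27 ± 0.380 RPKM. CSF1 came next at 4.80 ± 0.415 RPKM. IL18 at 3.62 ± 0.0783 and CSF2 at 3.18 ± 0.782 RPKM overlapped in their ranges, as did IL15 at 0.738 ± 0.170 and IL1R1 at 0.611 ± 0.0343 RPKM. IL1RAP at 0.511 ± 0.0204 and IL1A at 0.0671 ± 0.0543 RPKM were lowest. By this measure the secreted ligands CXCL8 and IL23A were the most abundant transcripts, and both chains of the interleukin 1 receptor were scarce. The order rests on the lengths used, 2588 bases for CXCL8, 1178 for IL23A, 7123 for IL1R1 and 11210 for IL1RAP. A length greater than that of the transcripts present would lower the RPKM, and this was not tested.

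In CP+siNAT10 the order by RPKM changed below CXCL8, which remained highest at 14.95 ± 1.25 RPKM (SD, n = 3). IL23A at 5.08 ± 0.290 RPKM was close to CSF1 at 4.42 ± 0.223, without overlap. IL7R at 2.30 ± 0.0270 RPKM lay below IL18 at 3.44 ± 0.338 RPKM, the reverse of their order in CP+siNC. IL1R1 at 1.31 ± 0.0288 RPKM lay above CSF2 at 1.03 ± 0.243, IL15 at 0.861 ± 0.127 and IL1RAP at 0.557 ± 0.0239 RPKM, and CSF2 and IL15 overlapped.

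**Figure D3:**
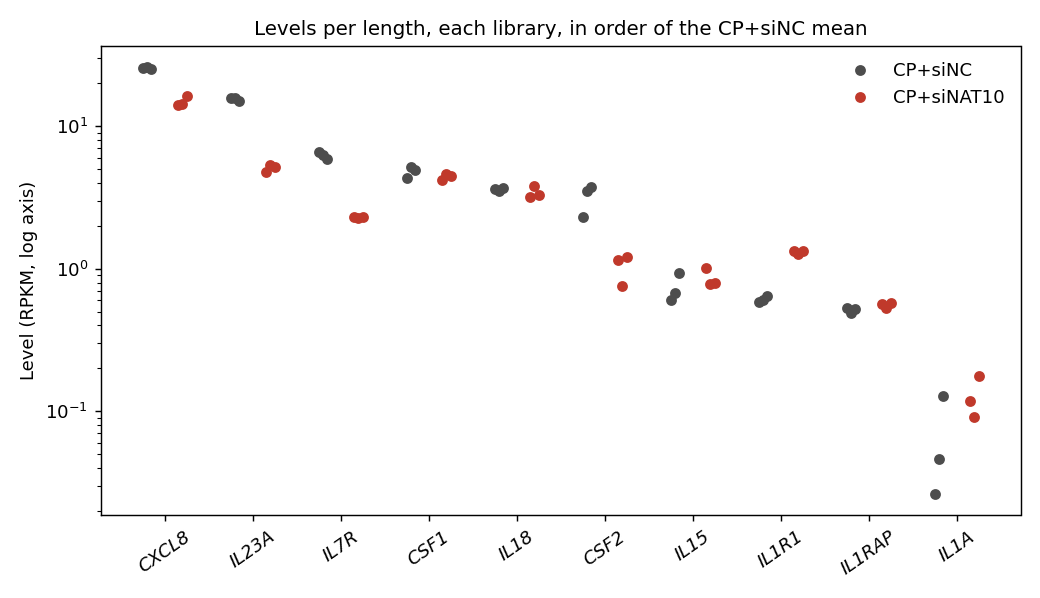
Level per length in RPKM (vertical axis, logarithmic) of the 10 genes in every library of CP+siNC (grey) and CP+siNAT10 (red), ordered by the CP+siNC mean. CXCL8 is highest in both groups, and IL7R and CSF2 drop below genes that they matched or exceeded in CP+siNC, while IL1R1 moves up.

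The other genes of the same pathways were taken from lists written by function, also chosen with earlier results of these data known. Without the 10 genes and without the lists of chromosomal neighbours, 61 genes were tested. Of these 21 were lower and 14 higher at an adjusted p under 0.05 (edgeR quasi-likelihood test with Benjamini-Hochberg adjustment), where the same rule gave 22.3% lower and 21.8% higher over all tested genes, the background for each list. Their median log2 fold change was -0.074, and the one farthest from 0 was IL2RB at -0.99. With 1 library left out, 3 of the genes named from the pathway lists were past a 2-fold difference, IL2RB at -1.32 without CP+siNC replicate 3, and IL12RB2 at -1.39 and IL27RA at -1.09 without CP+siNAT10 replicate 3.

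**Figure D4:**
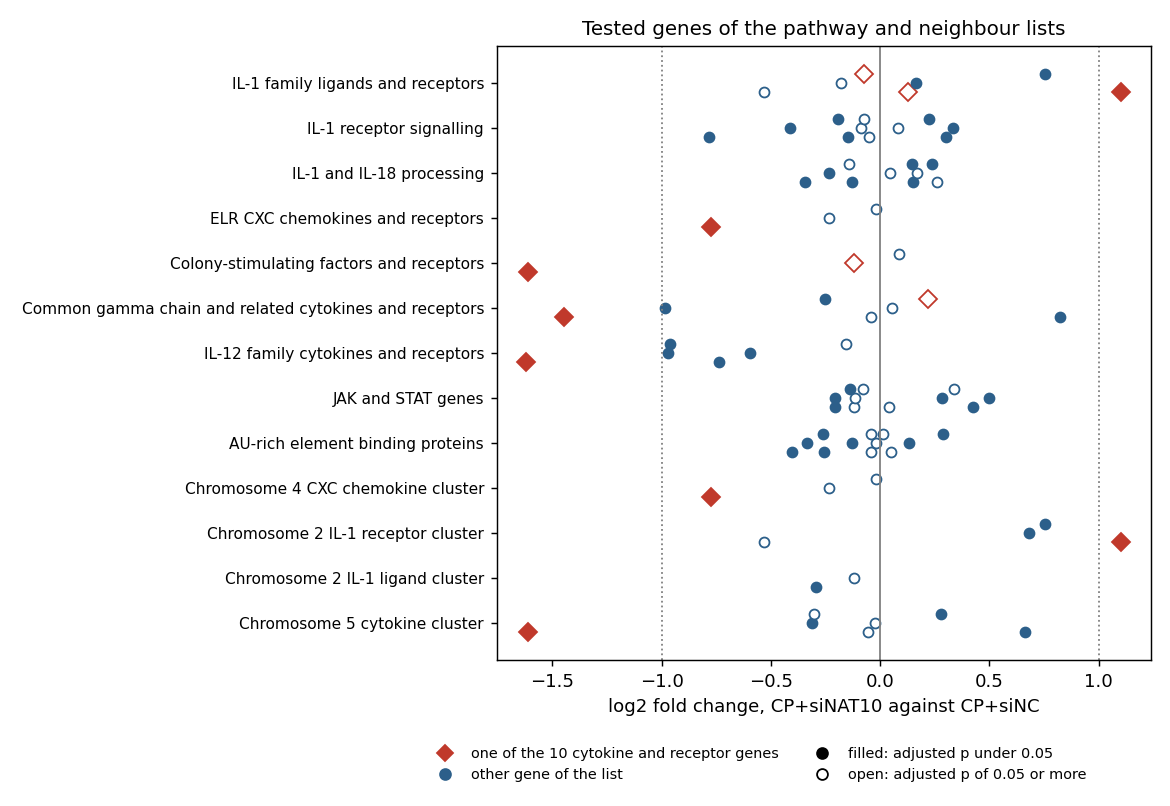
Log2 fold change of CP+siNAT10 against CP+siNC (horizontal axis) of every tested gene in each pathway or neighbour list, with the 10 cytokine and receptor genes as red diamonds and other genes as blue circles, filled at an adjusted p under 0.05. IL23A, CSF2, IL7R and IL1R1 are the points beyond 1 in size, and 5 of the 6 tested genes of the IL-12 family are lower, where 22.3% of all tested genes were.

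Of 22 IL-1 family ligands and receptors, 7 were tested, with 3 higher, 4 not called (edgeR, adjusted p under 0.05) and a median log2 fold change of 0.13. Beside IL1R1, these were IL1RL2, the interleukin 36 receptor, at 0.76 and IL18BP, the decoy that captures interleukin 18, at 0.16 (edgeR adjusted p = 0.0204). The IL18BP call was lost with DESeq2 (adjusted p = 0.107), without CP+siNC replicate 3 (edgeR adjusted p = 0.129) and without CP+siNAT10 replicate 1 (edgeR adjusted p = 0.0850). Of the 8 ligands only IL18 had enough counts to be tested, so the receptor IL1R1 rose in cells where transcripts of its ligands IL1A and IL1B had at most 9 counts per library. IL1B had 2, 3 and 3 counts in CP+siNC and 2, 4 and 5 in CP+siNAT10.

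The 11 genes that relay the IL-1 receptor signal were all tested, with 4 lower, 3 higher and a median log2 fold change of -0.074. IRAK4, the first kinase recruited by the adaptor MYD88, fell from 44.2 to 47.1 CPM in CP+siNC to 25.1 to 28.0 CPM in CP+siNAT10, a log2 fold change of -0.78 (standard error 0.0514, edgeR quasi-likelihood test, Benjamini-Hochberg adjusted p = 4.80e-13). The inhibitory family member IRAK3 fell by 0.41 and the adaptor TAB2 by 0.19 on the log2 scale. IRAK1, the most abundant per length, did not pass at -0.053. The higher genes, named after their values were seen, were TOLLIP, an inhibitor of the pathway, at 0.33, and the kinase gene MAP3K7 and its partner TAB1 at 0.22 and 0.30.

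Of 13 genes for the processing and release of interleukin 1 and 18, 10 were tested, with 3 lower, 3 higher and a median log2 fold change of 0.095. The inflammasome sensor NLRP1 was lower at -0.35, as were the calpain subunit CAPNS1 at -0.23 and S100A13, which takes part in interleukin 1 alpha export, at -0.13. CASP8 was higher at 0.24. Named after their values were seen, the calpain gene CAPN2 was higher at 0.15 and the calpain gene CAPN1 did not pass at 0.045. CASP1, the protease that matures interleukin 18, was too low to be tested.

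Among 10 neutrophil-attracting CXC chemokines and their receptors, 3 were tested and CXCL8 was the called one, lower, with a median log2 fold change of -0.23. CXCL2 was measured at -0.23 (edgeR adjusted p = 0.163) and CXCL3 at -0.017 (edgeR adjusted p = 0.957), a sign that turned when only library size was used for scaling, at 0.020. These genes share a cluster on chromosome 4 with CXCL8, where 3 of 9 genes were tested. The receptors CXCR1 and CXCR2 were untested for lack of counts.

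Of 12 colony-stimulating factors and receptors, 3 were tested, with 1 lower, CSF2, 2 not called and a median log2 fold change of -0.12. CSF1R, the receptor of M-CSF, was at 2.61 to 4.03 CPM over all libraries and its log2 fold change of 0.088 did not pass (edgeR adjusted p = 0.690). Without CP+siNAT10 replicate 2 that value was -0.084. The chains of the GM-CSF receptor, CSF2RA and CSF2RB, were too low to be tested. CSF2RA has an entry on chromosome X and another on Y at the same coordinates, so reads matching both could be lost or split. On chromosome 5, 7 of 12 genes of the cytokine cluster around CSF2 were tested, with 2 lower, 2 higher and a median of -0.055. RAD50, a DNA repair gene, was higher at 0.66 and P4HA2, next to CSF2, at 0.28, while KIF3A was lower at -0.31.

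Of 18 common gamma chain and related cytokines and receptors, 7 were tested, with 3 lower, 1 higher and a median of -0.040. IL15RA, the receptor chain that presents interleukin 15, rose from 4.06 to 4.41 CPM in CP+siNC to 7.03 to 7.91 CPM in CP+siNAT10, a log2 fold change of 0.82 (standard error 0.110, edgeR quasi-likelihood test, Benjamini-Hochberg adjusted p = 4.39e-07). IL7, the ligand of IL7R, fell by 0.25 on the log2 scale (edgeR adjusted p = 0.00492), a call lost without CP+siNC replicate 3 (edgeR adjusted p = 0.0508) or CP+siNAT10 replicate 3 (edgeR adjusted p = 0.0626). So ligand and receptor of the interleukin 7 pair were both lower. IL2RB, named after its values were seen, was also called lower (edgeR adjusted p = 0.0361), from 0.363 to 1.12 CPM in CP+siNC to 0.320 to 0.522 CPM in CP+siNAT10, and lost its call in 6 of 12 alternatives, among them those without CP+siNC replicates 1 or 2 or without CP+siNAT10 replicates 2 or 3 (edgeR adjusted p between 0.107 and 0.239). IL13RA1, an interleukin 13 receptor chain that works without the common gamma chain and was the most abundant per length, did not pass at 0.056. The shared chain IL2RG itself was too low to be tested, with 4 to 9 counts per library.

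Of 10 genes of the IL-12 family, 6 were tested, and 5 of these were lower and 1 was not called (edgeR, adjusted p under 0.05), where 22.3% of all tested genes were lower, with a median log2 fold change of -0.85 beside 0.0070 over all tested genes. Beside IL23A, IL6ST, the shared gp130 chain, fell from 142 to 152 CPM in CP+siNC to 96.4 to 98.0 CPM in CP+siNAT10, a log2 fold change of -0.60 (standard error 0.0358, edgeR quasi-likelihood test, Benjamini-Hochberg adjusted p = 7.35e-14). IL27RA, the interleukin 27 receptor, fell by 0.96 on the log2 scale with a standard error of 0.0930. The others, named after their values were seen, were IL12A, the p35 subunit, at -0.74 and IL12RB2 at -0.97, and EBI3, which did not pass, at -0.15. The IL12RB2 call was lost without CP+siNAT10 replicate 2 (edgeR adjusted p = 0.0594). IL23R and IL12RB1, the receptor pair for interleukin 23, were too low to be tested.

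All 11 JAK and STAT genes were tested, with 3 lower, 3 higher and a median log2 fold change of -0.080. JAK1, the kinase bound by IL7R and gp130, rose by 0.50 on the log2 scale (edgeR adjusted p = 1.58e-12), STAT5B by 0.42 and TYK2 by 0.28. STAT6, the most abundant per length, was at -0.080 and did not pass (edgeR adjusted p = 0.0614), though it did without CP+siNC replicate 3 (edgeR adjusted p = 0.0406) and with a filter of at least 50 counts in 3 libraries (edgeR adjusted p = 0.0375). Among the lower genes, and named after their values were seen, were STAT2 at -0.21 and STAT3 at -0.14.

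All 12 genes of proteins that bind AU-rich elements were tested, with 5 lower, 2 higher and a median log2 fold change of -0.042. ZFP36, which promotes decay of CSF2 and other cytokine mRNAs, fell by 0.40 on the log2 scale, and PCBP1 fell by 0.34. TIA1, which represses translation, rose by 0.29. HNRNPD, the most abundant per length, was at -0.017 and at 0.021 when only library size was used for scaling, and did not pass either way.

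In the receptor cluster on chromosome 2, 4 of 8 genes were tested, with 3 higher, 1 not called and a median log2 fold change of 0.72. These were IL1R1, IL1RL2 and the kinase gene MAP4K4, which rose from 168 to 173 CPM in CP+siNC to 266 to 283 CPM in CP+siNAT10 (log2 fold change 0.68, standard error 0.0338, edgeR quasi-likelihood test, Benjamini-Hochberg adjusted p = 1.13e-15). IL18R1, in the same cluster, was under 1 CPM in every library and did not pass at -0.53 (edgeR adjusted p = 0.196). Of 11 genes in the ligand cluster around IL1A, 2 were tested, the flanking CKAP2L, lower at -0.30, and PSD4, which did not pass at -0.12 and was at 0.0049 without CP+siNAT10 replicate 1.

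Markers of other cell types were compared because leukocytes also express these cytokines and receptors. The 12 leukocyte markers summed to 214, 203 and 221 CPM in CP+siNC and to 292, 271 and 273 CPM in CP+siNAT10. Nearly all of this was CD68, a lysosomal gene at a mean of 239.5 CPM that rose by 0.40 on the log2 scale (edgeR adjusted p = 7.97e-10). The defining genes CD3E, CD3D, MS4A1, LYZ, ITGAM and NKG7 each had a mean under 1 CPM, and KIT had 0 counts. PTPRC, the pan-leukocyte gene CD45, had levels of 0.363 to 0.467 CPM in CP+siNC and 0.475 to 1.33 CPM in CP+siNAT10. It was called higher (edgeR adjusted p = 0.0411), a call lost in 6 of 12 alternatives, among them those without each CP+siNC library. Without CP+siNAT10 replicate 2 its log2 fold change was 0.46 (edgeR adjusted p = 0.404) instead of 0.96. CD14 was at 0.686 to 1.30 CPM over all libraries and did not pass.

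The 6 endothelial markers together stayed between 0.159 and 0.561 CPM per library, too low to be tested, with CLDN5 at a mean of 0.0250 RPKM and PECAM1 at 0.0223 RPKM the most abundant per length. The 7 fibroblast and pericyte markers summed to 25.8, 25.7 and 24.1 CPM in CP+siNC and to 26.5, 33.0 and 26.9 CPM in CP+siNAT10. LUM was the most abundant per length, at a mean of 4.24 RPKM against 1.34 RPKM for COL1A1. COL1A1 was higher at 0.38 on the log2 scale, while LUM and RGS5 did not pass. Of the 18 renal markers 12 were tested, with 3 lower, 4 higher and a median log2 fold change of 0.068. Among them PAX8 rose by 0.59 and the cadherin gene CDH6 by 0.47 on the log2 scale, and KRT18 fell by 0.36. The part of these shifts in the results for the cytokine and receptor genes was not tested.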

How the data were processed

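Stranded mRNA libraries carrying molecular identifiers, meant to correct for duplicate reads, were sequenced from 6 samples, assigned to groups and replicate numbers by their labels. The deposited values are raw counts per gene made by the authors. Their processing notes name Trimmomatic 0.36, STAR 2.5.3a, featureCounts of Subread 1.5.1, edgeR 3.12.1 and GRCh38. Whether identifiers were merged and strand was used in counting is not given in the sources used here. Unmerged copies would widen replicate spread.

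The test ran in edgeR 4.0.16 under R 4.3.3. Low genes were removed by filterByExpr (at least 10 counts in enough libraries, 15 in total), libraries scaled by TMM, and groups compared with the quasi-likelihood test (glmQLFit, glmQLFTest) without a replicate term. P-values were adjusted by Benjamini-Hochberg over all 19874 tested genes, and the biological coefficient of variation was 3.00%. Standard errors were derived from the fold change and F statistic. RPKM used the gene length given by the authors' table. An exact two-sided permutation test of 3 against 3 libraries cannot go below p = 0.10, so single genes rest on the model. Depth limits precision for genes with few counts, such as CSF2 and IL1A.

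The genes described and the lists were chosen with earlier results of these data known. By rule, named genes were NAT10, the 10 genes and, from each list, those past both limits. Each list also gave up to 3 with the smallest adjusted p under 0.05 and the most abundant per length. Lists with 5 or fewer tested genes gave all of them. Others were named after their values were seen, as marked where they appear. Some markers, among them VIM and GGT1, and genes too low to be tested were described outside this rule. Alternatives were RLE scaling, library size scaling, 2 other count filters, a replicate block, DESeq2 1.42.0, limma voom (limma 3.58.1) and leaving out each library. In addition, glmTreat tested all 19874 genes against a 2-fold difference, and was set only beside the counts of genes past both limits. Counts of lost calls and ranges of adjusted p leave out glmTreat. Sequences were read from RefSeq and GENCODE 29 with Python 3.11.15, and plots drawn with matplotlib 3.10.9.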

Additional observations from a re-analysis of the deposited data

How the results depend on the processing

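The calls of the 9 tested genes held in 114 of 116 checks over the alternatives other than glmTreat, the exceptions being CSF1 without CP+siNC replicate 1 and IL15 without CP+siNC replicate 3. Over the libraries left out in turn, the genes called lower were therefore 4 to 5 in number and those called higher 1 to 2. With at least 50 counts in 3 libraries required, CSF2 was not tested. When the fold change itself was tested against 2 with glmTreat, 2 of the 4 genes past both limits passed, IL23A and IL7R. Over all tested genes, 464 passed both limits, against 711 without a filter on low counts, 201 with at least 50 counts in 3 libraries and 56 with glmTreat, where fewer or more genes tested and the stricter hypothesis follow from the settings. Scaling by library size only moved the higher share of called genes from 49.4% to 57.2%.

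Same-numbered libraries did not deviate together (r of -0.030, 0.023 and -0.16), so the numbers were not taken as pairs. With a replicate block, NAT10 was at -0.83, 8526 genes had an adjusted p under 0.05, 461 passed both limits, and the counts of the 10 genes were as without it, 4 lower, 1 higher and 4 past both limits.

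Some log2 fold changes near 0, none of them called, turned sign, and the cause was not tested. With library size scaling CXCL3 was at 0.020, HNRNPD at 0.021, KRT8 at 0.033 and CD14 at 0.0079, and KRT8 was at 0.0068 without a filter. Leaving out each library gave -0.13 to 0.10 for CXCL3, -0.084 to 0.21 for CSF1R, -0.050 to 0.0014 for HNRNPD, -0.29 to 0.0049 for PSD4, -0.020 to 0.0040 for KRT8, -0.24 to 0.19 for CD14 and -0.11 to 0.13 for LUM. It moved other values that did not pass by over 1.5 times without a change of sign, to -0.35 to -0.12 for CXCL2, 0.024 to 0.088 for IL13RA1, -0.24 to -0.067 for EBI3 and 0.034 to 0.35 for RGS5. Library size scaling did the same for some, among them IRAK1 at -0.015, IL18 at -0.035, STAT6 at -0.042 and IL13RA1 at 0.093.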
